A study of Sus scrofa with 6 samples.

Results

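ADAMTS16 held 12 of the 14163 differentially methylated regions (DMRs) that separated Landrace backfat (LBF) from Rongchang backfat (RBF), and all 12 lay in internal introns, which are neither the first nor the last intron of the gene. Of the 12, 10 had the higher read depth in LBF and 2 the lower. When every library was given the same median depth, this split became 6 and 6, and DMRs 4, 5, 6 and 7 changed direction. Over all 14163 DMRs the split went from 12016 higher and 2147 lower to 8476 and 5687. At the ends of the stretch lay a pair of neighbors of opposite direction each, DMRs 1 and 2 and DMRs 11 and 12, whose directions were the same under both scalings. Equal medians lower LBF relative to RBF throughout, so for DMRs 2 and 11 this was fixed beforehand. Under equal medians DMR 1 was still called higher in LBF by limma at an adjusted p under 0.05, and DMR 12 was not.

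ADAMTS16 encodes a secreted zinc protease of the ADAMTS family (a disintegrin and metalloproteinase with thrombospondin motifs), whose members cut proteins of the extracellular matrix. These enzymes are made as inactive precursors, and their propeptide is removed by furin-like proteases. ADAMTS18 is the closest relative of ADAMTS16, and fibronectin is a known substrate. In rats the gene has been linked to blood pressure and to the development of the testis. DNA methylation in mammals sits mostly on the cytosine of CpG dinucleotides and covers much of the body of genes.

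The series measured DNA methylation by methylated DNA immunoprecipitation sequencing (MeDIP-seq), in which an antibody against methylated cytosine pulls down DNA fragments. The read depth over a CpG then rises with its methylation, but also with the density of CpGs, so that depths are compared here between breeds at one region and not as methylation levels between regions. The libraries came from backfat of 3 Landrace pigs, a lean breed, and 3 Rongchang pigs, a fatty Chinese breed. All 6 were females of 210 days, kept in one environment and fasted before slaughter, and each library came from a separate animal. Breed was the only labelled difference, and in bulk tissue a different mix of cells and a different methylation per cell cannot be told apart. Reads of both breeds were mapped to the same reference genome. Whether the breeds differ in DNA sequence or copy number at these regions was not tested.

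The members were found by their annotation, as all DMRs whose human homologue is ADAMTS16. The pig transcript was ENSSSCT00000018627 in each case, and the symbol column of the pig gene also read ADAMTS16 for all 12. The regions in the table had in turn been selected on a difference in read depth between the breeds in these same 6 pigs, with at least 5 CpGs per region. Direction, fold change and calls of the ADAMTS16 DMRs are therefore a description, and no test of them between the breeds is offered as evidence. The ranges of LBF and RBF depths were apart at all 12 ADAMTS16 DMRs, as they were at 100% of the DMRs listed, so nothing is read from that.

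Depth is the mean over the CpGs of a DMR, scaled by the authors per library. Multiplied by the CpG count, the depths of a library moved in equal steps (100% of the DMRs within 0.01 of a whole step), and the number of steps is the number of read-by-CpG overlaps behind a value. Over all DMRs the median depth per library was 34.1 to 35.4 in LBF and 9.40 to 14.4 in RBF. The mean depth of the ADAMTS16 DMRs had a median of 41.6 in LBF and 16.6 in RBF, against 35.1 and 12.8 over all DMRs, and rested on median overlaps per library of 288 to 324 in LBF and 91 to 128 in RBF. Overlaps are not independent molecules, because a single read can cover several CpGs. No expression values were analysed here, so the tissue could not be checked by its markers, and among marker genes DMRs were listed at 1 of 8 for adipocytes (PLIN1), 1 of 5 for immune cells (CD3E), 1 of 4 for endothelium (VWF), 1 of 5 for skeletal muscle (MYH7) and 0 of 5 for fibroblasts.

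The 12 ADAMTS16 DMRs spanned 116 kb of chromosome 16, from 82651227 to 82767559 on Sscrofa10.2. They are numbered here along the chromosome, since the table gives no strand. Their lengths ran from 59 to 391 bp with a median of 136 bp, against 148 bp over all DMRs, and they held 5 to 15 CpGs each with a median of 7, as over all DMRs. Together they held 96 CpGs in 2227 bp, which covered 1.91% of the stretch. CpG density had a median of 4.38 per 100 bp, against 5.23 over all DMRs. No ADAMTS16 DMR overlapped a CpG island and 1, DMR 6, lay in the shore of an island within the gene. Of all 14163 DMRs, 567 lay in an island shore, inside or outside genes.

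With limma on log2(depth + 1), fitted to all 14163 DMRs, 10 ADAMTS16 DMRs were called higher and 2 lower in LBF at an adjusted p under 0.05. The same call was made higher in LBF for 84.5% and lower for 15.1% of all DMRs, 99.5% in all. By mean depth alone, 84.8% of all DMRs were higher and 15.2% lower in LBF, so the split of ADAMTS16 is close to that of the table and nothing is read from it. Among other internal intron DMRs 16.6% were lower in LBF, against 16.7% in ADAMTS16. Fold changes are LBF over RBF on the log2(depth + 1) scale, which shrinks the changes of shallow regions. The median over the ADAMTS16 DMRs was 1.42, against 1.64 over all DMRs, and single values ran from -2.10 to 4.67.

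The first 2 DMRs of the stretch faced each other in opposite directions across 734 bp. DMR 1 (82651227 to 82651372, 5 CpGs) had depths of 36.4, 35.6 and 37.0 in LBF, against 2.13, 0 and 0 in RBF. The LBF depths rested on 155, 138 and 156 overlaps and the RBF depths on 7, 0 and 0, where 3 overlaps would have given a depth of 0.774 to 0.937. DMR 1 was thus well covered in every LBF pig and almost without reads in all RBF pigs, and its log2 fold change was 4.67 (standard error 0.47). With so few RBF overlaps this size depended on the pseudocount, and it was 5.4 with a pseudocount of 0.5 and 2.88 with one of 5. DMR 2 (82652107 to 82652171, 5 CpGs) had depths of 17.2, 23.5 and 17.3 in LBF, against 55.5, 65.6 and 44.9 in RBF. All 3 RBF pigs were higher here, with a mean 2.86 times that of LBF (log2 fold change -1.47, standard error 0.24).

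The last 2 DMRs repeated this arrangement, 1224 bp apart. DMR 11 (82766005 to 82766243, 8 CpGs) had depths of 1.03, 5.96 and 5.04 in LBF, against 18.3, 17.96 and 17.3 in RBF. RBF pigs were close to each other at DMR 11, whereas LBF replicate 1 had only 7 overlaps beside 37 and 34 in the other LBF pigs, and RBF pigs had 4.45 times the mean of LBF pigs. The log2 fold change was -2.10 (standard error 0.48), or -1.39 with a pseudocount of 5. DMR 12 (82767468 to 82767559, 6 CpGs) had depths of 33.5, 49.6 and 40.7 in LBF, against 5.08, 1.56 and 15.3 in RBF. These RBF depths rested on only 20, 6 and 71 overlaps. On the log scale the RBF pigs differed more from each other at DMR 12 than at any other DMR of the gene, with replicate 3 above replicates 1 and 2. The log2 fold change of 2.72 (standard error 0.64) was 3.40 without RBF replicate 3, 2.07 without RBF replicate 2 and 2.05 with a pseudocount of 5.

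**Figure D1:**
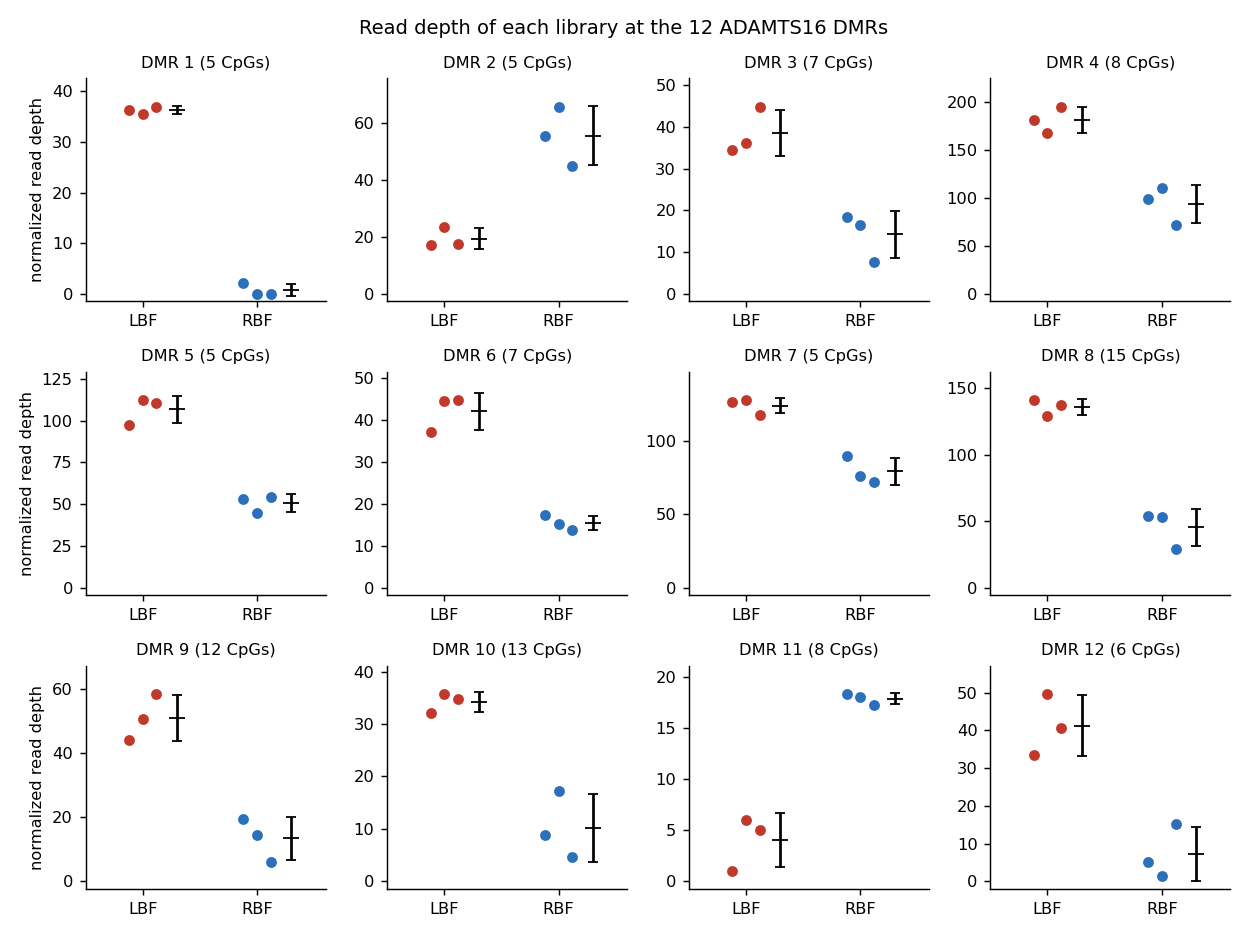
Normalized read depth of each library at the 12 ADAMTS16 DMRs, with 1 panel per DMR in chromosomal order and a linear vertical axis of its own that includes 0. Points are pigs (LBF red, left, and RBF blue, right, n = 3 each), and bars are means with SD. LBF lies above RBF in 10 panels and below it in the panels of DMR 2 and DMR 11. With equal library medians DMRs 4, 5, 6 and 7 change direction.

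A ratio of depths within a library does not depend on how that library was scaled. The depth at DMR 1 was 2.12, 1.52 and 2.14 times that at DMR 2 in LBF pigs, against 0.0385, 0 and 0 times in RBF pigs. The depth at DMR 12 was 32.6, 8.32 and 8.08 times that at DMR 11 in LBF pigs, against 0.278, 0.0870 and 0.885 times in RBF pigs. In each LBF pig the outer DMR of the pair was thus the deeper, and in each RBF pig the inner. The ratio of DMR 12 to DMR 11 came near 1 in RBF replicate 3 alone. Breed ranges were apart at every listed DMR, and the directions within each pair were opposite. A higher ratio in every LBF pig than in any RBF pig was therefore fixed beforehand, and nothing is read from it. Which DMR is deeper also depends on CpG density, at 3.42 per 100 bp in DMR 1 and 7.69 in DMR 2. It was 3.35 in DMR 11 and 6.52 in DMR 12.

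**Figure D2:**
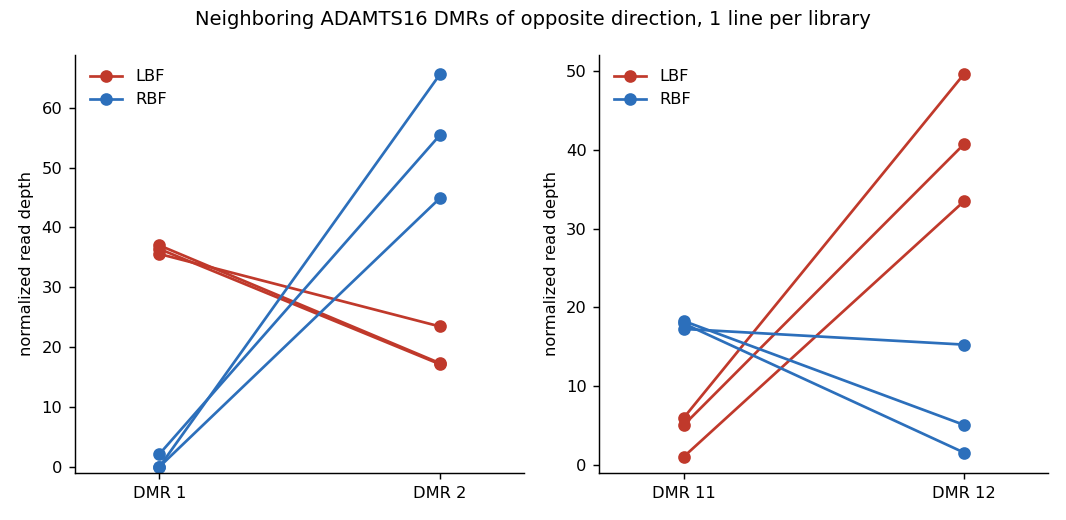
Normalized read depth at the neighboring DMRs 1 and 2 (left) and 11 and 12 (right) of ADAMTS16, with 1 line per library (LBF red, RBF blue). The lines of the breeds cross in both panels, since DMR 1 and DMR 12 were deeper in LBF and DMR 2 and DMR 11 in RBF.

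Both ADAMTS16 DMRs lower in LBF had, as their nearest DMR, one of the opposite direction within 2000 bp. Outside ADAMTS16, 151 of 2145 DMRs lower in LBF had their nearest DMR within that distance, and 103 of these neighbors (4.80% of the 2145) were of the opposite direction. The limit of 2000 bp was set after the ADAMTS16 values had been seen, and 2 DMRs do not allow a comparison of shares.

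The 4 DMRs of ADAMTS16 with the highest mean depth in LBF lay between these pairs, whereas in RBF the mean of DMR 2 exceeded those of DMRs 5 and 8. DMR 4 (82672603 to 82672669, 8 CpGs) had depths of 181, 168 and 195 in LBF, against 99.2, 110 and 71.5 in RBF, on 443 to 1317 overlaps per library. It was the most CpG-dense of the 12, with 11.9 CpGs per 100 bp, and its LBF mean was above that of 99.7% of all DMRs. DMR 5 (82676259 to 82676317, 5 CpGs) had 97.3, 112 and 111 in LBF, against 53.3, 44.7 and 54.2 in RBF. At both DMR 4 and DMR 5 every LBF pig had more depth than any RBF pig, but breed ranges were apart at 100% of the DMRs listed. DMR 7 (82719183 to 82719294, 5 CpGs) had 126, 127 and 118 in LBF, against 89.6, 75.6 and 72.0 in RBF. DMR 8 (82726271 to 82726619), the richest in CpGs with 15, had 141, 129 and 138 in LBF, against 53.7, 53.3 and 29.4 in RBF. A mean LBF depth above 100 was reached by these 4 of 12 DMRs (33.3%), and by 3.94% of all DMRs, a bound chosen after the values had been seen.

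In spite of their depth, 3 of these DMRs had small fold changes. DMR 7 had the smallest of the gene, with a log2 fold change of 0.64 (standard error 0.19), which in absolute size exceeded that of 2.32% of all DMRs, and DMR 4 and DMR 5 had 0.97 (0.23) and 1.06 (0.19). DMR 8 had a log2 fold change of 1.61 (0.28), close to the median over the table. Leaving out LBF replicate 2 gave DMR 7 an adjusted p of 0.052 by limma, within a range of 0.00039 to 0.052 over the alternatives that kept the authors' scaling.

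The other 4 DMRs had moderate depth. DMR 6 (82693523 to 82693740, 7 CpGs), in the island shore, had depths of 36.9, 44.4 and 44.6 in LBF, against 17.2, 15.2 and 13.8 in RBF (log2 fold change of 1.39 with a standard error of 0.20). DMR 3 (82660247 to 82660371, 7 CpGs) had 34.6, 36.1 and 44.9 in LBF, against 18.5, 16.5 and 7.74 in RBF (1.45 with a standard error of 0.35). Both breeds were tight at DMR 6, while RBF replicate 3 stood well below both other RBF pigs at DMR 3. DMR 9 (82729540 to 82729930, 12 CpGs) had 44.1, 50.7 and 58.4 in LBF, against 19.6, 14.6 and 6.13 in RBF (1.97, 0.41). DMR 10 (82750811 to 82751174, 13 CpGs) had 32.1, 35.7 and 34.9 in LBF, against 8.79, 17.2 and 4.57 in RBF (1.82, 0.43). At both DMR 9 and DMR 10 the LBF pigs lay closer together on the log scale than the RBF pigs, and RBF replicate 3 was again the lowest.

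RBF replicate 3 had the lowest depth of its breed at 9 of the 12 ADAMTS16 DMRs, as it did at 54.0% of all DMRs. LBF replicate 1 was the lowest LBF library at 8 of 12, against 40.0% of all DMRs. On the log2(depth + 1) scale the SD between pigs had a median over the ADAMTS16 DMRs of 0.13 in LBF and 0.40 in RBF, against 0.17 and 0.46 over all DMRs. The RBF pigs thus varied more than the LBF pigs, and they also had fewer overlaps. Without RBF replicate 3 the median log2 fold change of the 12 DMRs was 1.21, and the counts of 10 and 2 calls did not change.

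Across the 12 ADAMTS16 DMRs the log2 depths of libraries of one breed ran closely together, with Pearson's r of 0.983 to 0.990 for the 3 LBF pairs and 0.843 to 0.961 for the 3 RBF pairs. Between the breeds r was 0.307 to 0.497 over 9 pairs. Over all DMRs of the table the same order was seen, with r of 0.939 to 0.941 in LBF pairs, 0.762 to 0.822 in RBF pairs and 0.111 to 0.303 between the breeds. The log2 means of the breeds over the 12 ADAMTS16 DMRs had r of 0.427 (Spearman's coefficient 0.469). Over the 10 of them higher in LBF, a choice made by direction, r was 0.863 (0.855). These values are across regions, which share libraries, differ in CpG density and were listed for differing between the breeds. They describe the gene in these 6 libraries only.

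**Figure D3:**
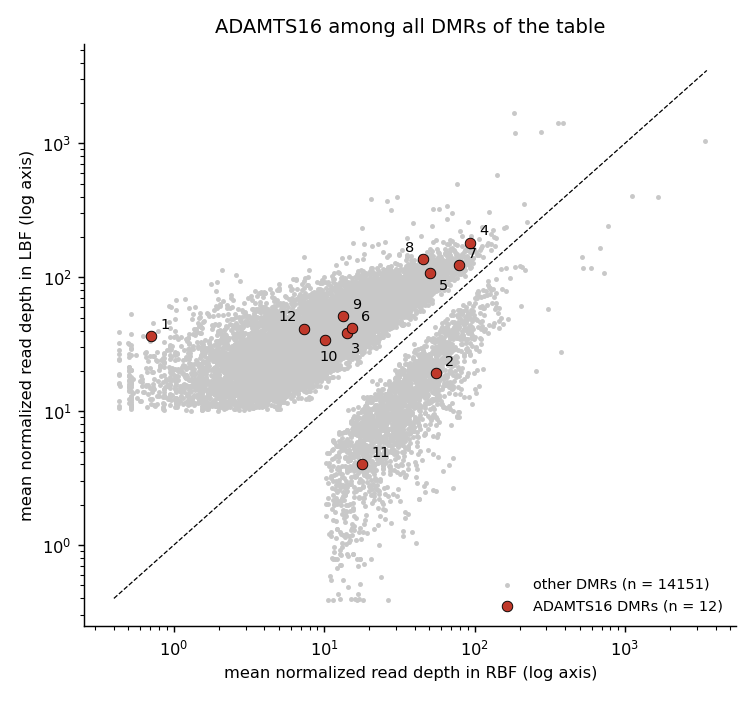
Mean normalized read depth in LBF (vertical, log axis) against RBF (horizontal, log axis) for all DMRs of the table, with the 12 ADAMTS16 DMRs numbered in red and equal depth as the dashed line. DMRs 4, 5, 7 and 8 lie at the deep end, DMR 1 at the far left with a mean of 0.711 in RBF, and DMRs 2 and 11 below the line. With equal library medians DMRs 4, 5, 6 and 7 change direction.

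The direction of the middle DMRs depended on how the libraries were scaled. When every library was set to the same median over the table, the median log2 fold change of all DMRs was 0.24 in place of 1.64, a shift of -1.41. Such a scaling treats the typical DMR as equal between the breeds, although the DMRs were listed for differing. It also lowers LBF relative to RBF throughout, so that a DMR lower in LBF could not change direction. The median of the ADAMTS16 DMRs was then -0.01, with 6 DMRs higher and 6 lower in LBF, against 8476 and 5687 of all DMRs. DMRs 4, 5, 6 and 7 had log2 fold changes of -0.52, -0.42, -0.05 and -0.84, and DMR 7 passed limma in that direction. DMR 1 (3.95) was the only DMR of the gene still called higher, against 10.9% of all DMRs, and DMR 2 (-2.92), DMR 7 and DMR 11 (-3.39) were called lower, against 17% of all DMRs. DMRs 3, 8, 9, 10 and 12 stayed on the LBF side (0.02 to 1.37) without passing.

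The ADAMTS16 stretch lay within a window from 82431929 to 82859948 that held 26 DMRs, including 9 before and 5 after those of the gene. This window, from the first to the last of its DMRs, had 6.07 DMRs per 100 kb and the ADAMTS16 stretch 10.3, against 0.452 over chromosome 16, where 391 DMRs spanned 86.6 Mb. ADAMTS16 alone held 3.07% of the DMRs of the chromosome, and the window 6.65%. The gaps between neighboring ADAMTS16 DMRs had a median of 8.07 kb and reached 25.4 kb, while 58.9 kb before DMR 1 and 49.6 kb after DMR 12 held none. Because the stretch was bounded by its own DMRs, these densities are descriptions.

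Of the 14 other DMRs of the window, 13 were intergenic and 1 lay within 2 kb downstream of ICE1, a subunit of the little elongation complex of small nuclear RNA transcription. In the RefSeq annotation of Sscrofa11.1, ICE1 is the protein-coding neighbor of ADAMTS16 on one side and IRX1, a homeobox gene, on the other. The ICE1 DMR (82447529 to 82447650) had depths of 91.8, 82.9 and 96.1 in LBF, against 27.7, 53.1 and 21.3 in RBF (log2 fold change of 1.48 with a standard error of 0.35). The breed ranges were apart there, as at every DMR listed, and with equal library medians the call was lost. Of all 14, 12 were called higher in LBF and 2 lower, against 84.5% and 15.1% of all DMRs. Their median log2 fold change was 1.48 beside 1.42 in ADAMTS16, with single values of -1.31 to 3.42. After equal library medians were set, 8 of the 14 had a positive and 6 a negative fold change, against 8476 and 5687 of all DMRs.

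The 5 DMRs after ADAMTS16 were all higher in LBF, with log2 fold changes of 1.31 to 2.70, of which the lowest turned with equal library medians, and the 2 lower ones lay before it. The DMR nearest to ADAMTS16 on that side (82591806 to 82592312) had 47.7, 55.5 and 49.6 in LBF, against 31.2, 24.0 and 33.7 in RBF, and turned under equal library medians. Next to it, a DMR lower in LBF (82590292 to 82590415) had 26.4, 34.8 and 42.5 in LBF, against 84.0, 97.4 and 77.2 in RBF (log2 fold change of -1.31 with a standard error of 0.24). These lay within 2000 bp of each other in opposite directions under the authors' scaling, but with equal library medians both were lower in LBF (-0.69 and -2.78), unlike the end pairs of ADAMTS16. The largest log2 fold change among the 14 other DMRs of the window was 3.42 (standard error 0.27) at 82543981 to 82544117, with 55.3, 42.9 and 58.0 in LBF, against 2.58, 5.17 and 4.37 in RBF.

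**Figure D4:**
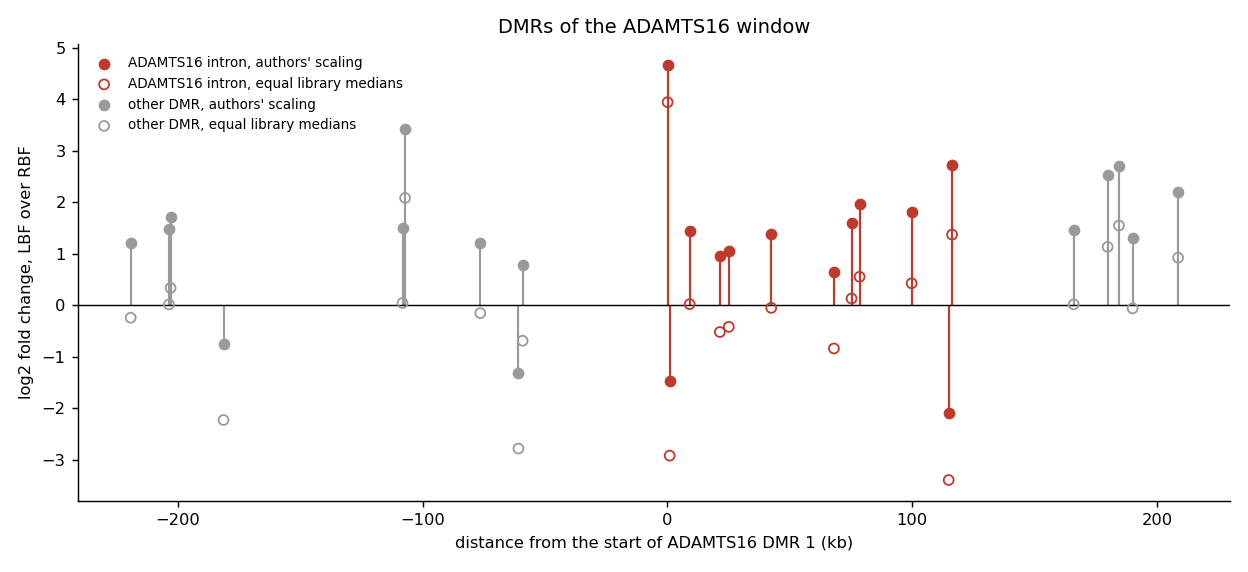
Log2 fold change, LBF over RBF, of the 26 DMRs of the window against distance in kb from the start of ADAMTS16 DMR 1 (ADAMTS16 in red, other DMRs in gray). Filled points use the authors' scaling and open points equal library medians. DMR 1 (4.67 and 3.95) is the highest and DMR 11 (-2.10 and -3.39) the lowest under both, and DMRs 4, 5, 6 and 7 cross the zero line.

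A further 26 DMRs lay within 1 Mb of the window on either side, of which 19 were higher in LBF and 7 lower. Equal library medians made this 12 and 14, against 8476 and 5687 of all DMRs. Among them 2 lay in a gene, both in the first intron of UBE2QL1, which encodes a protein like ubiquitin-conjugating enzymes. The UBE2QL1 DMRs ran in opposite directions, at 38.0, 39.8 and 52.0 in LBF, against 6.09, 7.29 and 10.1 in RBF, and at 56.2, 63.2 and 51.5 in LBF, against 87.8, 81.5 and 95.3 in RBF. They stayed opposite with equal library medians (0.93 and -2.10). So did a pair of intergenic neighbors 2071 bp apart, just beyond the limit of 2000 bp. The DMR at 82259035 had log2 fold changes of 3.11 and, with equal library medians, 1.83. The DMR at 82261240 had -0.73 and -2.22. Opposite neighbors that kept their directions under both scalings were thus not confined to ADAMTS16.

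Few genes held as many DMRs as ADAMTS16. Of 2686 human symbols with a DMR, 111 had 5 or more and 7 had 12 or more. The 111 include an entry that reads as a date in place of a symbol, with 6 DMRs on 2 chromosomes. It is not a single gene, and it was kept in the counts and profiles of genes that follow. ARHGAP26 had 21 DMRs, ATRX, a chromatin remodeler on the X chromosome, had 17, and PARK2, a ubiquitin ligase, had 14. IL1RAPL2, KIT and RTN3 had 12, as ADAMTS16 did, but all of theirs were higher in LBF under the authors' scaling, and with equal library medians 2 of IL1RAPL2, 3 of RTN3 and 0 of KIT turned. The DMRs of KIT and RTN3 were also packed more tightly, at 24.6 and 22.9 per 100 kb of their own span beside 10.3 for ADAMTS16, which was rank 18 of the 111 genes. Genes differ in length and CpG content, which these counts do not correct for. Among the 111 genes, 65 had DMRs in both directions and 46 only higher ones, and with equal library medians 93 had both.

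**Figure D5:**
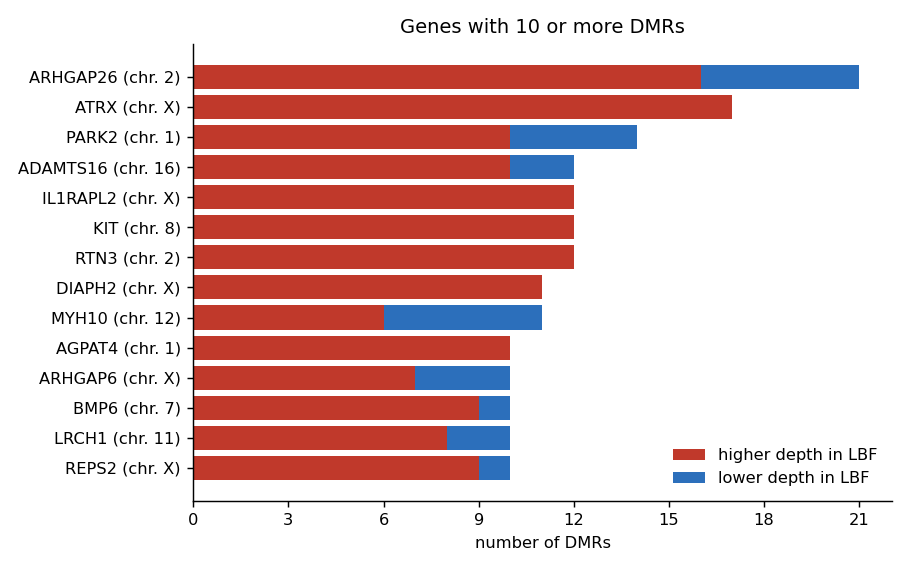
Number of DMRs per gene for genes with 10 or more, split into DMRs with higher (red) and lower (blue) mean depth in LBF under the authors' scaling. ADAMTS16 has 10 and 2, which become 6 and 6 with equal library medians. IL1RAPL2, KIT and RTN3 have the same total with none lower, of which 2, 0 and 3 turn with equal library medians.

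Genes were also compared by their profile, the median over the DMRs of a gene of log2(depth + 1) in each of the 6 libraries. Of the 110 other genes with 5 or more DMRs, the nearest to ADAMTS16 was PHACTR1, a regulator of actin and protein phosphatase 1, with a root mean square difference of 0.20 over the 6 libraries. LDLRAD3, a membrane protein of the LDL receptor class A type (0.22), KIF26B, a kinesin-like protein (0.23), ARSG, a lysosomal sulfatase (0.26), and GRIP1, a scaffold of glutamate receptors (0.30), followed, where the median over these genes was 0.67. PHACTR1 held 6 DMRs, all higher in LBF, and ARSG held 2 higher and 3 lower (3 and 3, and 0 and 5, with equal library medians). A near profile thus did not mean the same split of directions.

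Of the 25 other genes of the ADAMTS and ADAMTS-like family, 3 had a DMR in the table, ADAMTS2, ADAMTS14 and ADAMTS20, and ADAMTS18 had none listed. Their 6 DMRs all lay in internal introns, 5 higher and 1 lower in LBF, with a median log2 fold change of 1.38. All 6 were called, as were 99.5% of all DMRs (84.5% higher and 15.1% lower), so nothing is read from these counts. With equal library medians 0 of the 6 were called higher by limma, and 0 at an unadjusted p under 0.05. Under that scaling 10.9% of all DMRs were called higher and 17% lower. Among the 6, 2 DMRs of ADAMTS14 turned, and the lower DMR of ADAMTS2 kept its call. ADAMTS2 and ADAMTS14 remove the N-propeptide of procollagens. The lower ADAMTS2 DMR (chromosome 2, 80845418 to 80845638) had 15.1, 9.88 and 11.5 in LBF, against 24.1, 26.03 and 23.2 in RBF (log2 fold change of -0.97 with a standard error of 0.22), and the higher one (80859604 to 80859761) had 48.6, 63.2 and 58.1 in LBF, against 12.4, 19.3 and 3.66 in RBF (2.40, 0.53).

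ADAMTS14 held 3 DMRs with log2 fold changes of 0.67 to 1.62, the deepest (chromosome 14, 79429674 to 79429891) at 72.0, 67.8 and 58.3 in LBF, against 31.2, 23.4 and 11.9 in RBF. The LBF pigs were all above the RBF pigs at each of these DMRs, but breed ranges were apart at every DMR listed. ADAMTS20, which takes part in the spread of pigment cells in mice, had a DMR (chromosome 5, 77410870 to 77411038) at 62.3, 57.4 and 57.5 in LBF, against 19.3, 24.4 and 2.49 in RBF (log2 fold change of 2.30 with a standard error of 0.73). RBF replicate 3 was far below the other RBF pigs at ADAMTS20, which is named after its values were seen. Leaving out LBF replicate 1 gave it an adjusted p of 0.055 by limma, and leaving out LBF replicate 3 gave 0.0505, in a range of 0.00049 to 0.055 under the authors' scaling.

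Among 13 genes that act with ADAMTS proteases or in the matrix they cut, 2 had a DMR, both in internal introns. For FN1, fibronectin (chromosome 15, 130370808 to 130370993), depths were 15.5, 17.8 and 15.2 in LBF, against 27.2, 24.7 and 28.8 in RBF (log2 fold change of -0.70 with a standard error of 0.19). For A2M, alpha-2-macroglobulin, a broad inhibitor of proteases (chromosome 5, 65309354 to 65309442), they were 32.5, 35.5 and 38.8 in LBF, against 8.89, 5.21 and 9.04 in RBF (2.10, 0.25). FN1 was thus lower and A2M higher in LBF. With equal library medians FN1 was still called lower, as were 17% of all DMRs. A2M (0.70) was not called, where 10.9% of all DMRs were called higher. That scaling lowers LBF relative to RBF throughout, so nothing is read from this contrast. No DMR was listed for FBN1, FBN2, COL1A1 or COL1A2 of the matrix, TIMP1 to TIMP4, FURIN, the clearance receptor LRP1 or WT1, a transcription factor of the kidney and gonads.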

How the data were processed

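The authors filtered the reads for quality, mapped them to Sscrofa10.2 with SOAP2, kept CpGs above a minimum depth, and merged differing CpGs into DMRs of 5 or more. The deposited signal is the read depth (coverage) of each library as a mean over the CpGs of a DMR, scaled per library by the authors with a factor not given in the sources used here. For their chromosomal profiles the authors describe depth relative to the average number of reads of a group, and whether this was applied to the DMR table is not stated. Breed means listed by the authors matched those of the library columns within rounding. The deposited p-value and FDR of each DMR hold the authors' own comparison and were not used. The deposited positions, lengths and CpG counts were used as given. No genome was used, and RefSeq (Sscrofa11.1) gave only the order of neighboring genes.

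The table holds 15883 annotations of 14163 DMRs, and each DMR was used once. Breed was the single term of a limma fit (version 3.58.1 in R 4.3.3) of log2(depth + 1) over all DMRs, with Benjamini-Hochberg adjustment over the table and a threshold of 0.05. The fit was tested on simulated data in which few regions differed between the groups. All regions here were listed for differing, so that test gives no error rate for these calls. For 3 against 3 pigs, the smallest two-sided p of an exact permutation test is 0.1. The members, the gene lists and the tests were chosen with earlier results of these data known. By rule, the text covers every DMR of ADAMTS16, the genes with DMRs within 1 Mb, ADAMTS18 and partner genes with a DMR. It also covers family genes with 3 or more DMRs or the highest or lowest fold change. The 5 nearest profiles and the 5 genes with most DMRs, with ties, are included. All other DMRs of the window are in its counts and map, but only some are given with their depths. The calls of ADAMTS16, the other DMRs of the window and the other family genes were repeated with other pseudocounts (0.5 and 5), on linear depth, on DMRs with a mean depth of 10 or more or with 10 or more CpGs, with equal library medians, with the replicate number as a block, and with each library left out.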

Additional observations from a re-analysis of the deposited data

How the results depend on the processing

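The calls of the 12 ADAMTS16 DMRs (10 higher, 2 lower in LBF), of the 14 other DMRs of the window (12 and 2) and of the 6 other family DMRs (5 and 1) were the same with a pseudocount of 0.5 or 5, with linear depth and with a mean depth of at least 10. Among all DMRs 84.5% were called higher and 15.1% lower under the authors' scaling. With equal library medians 1 ADAMTS16 DMR, 1 other DMR of the window and 0 of the family were called higher by limma (1, 2 and 0 at an unadjusted p under 0.05). The share of all DMRs called higher was then 10.9%. The median log2 fold change of ADAMTS16 became -0.013, with -0.52, -0.42, -0.049 and -0.84 for DMRs 4, 5, 6 and 7. With at least 10 CpGs only 3 ADAMTS16 DMRs, 5 of the window and 1 of the family were left, of which 3, 5 and 1 were called higher and 0, 0 and 0 lower, and the ADAMTS16 median was 1.82. With a pseudocount of 5 that median was 1.21, and with linear depth it has no value. With each library left out, 9 to 10 ADAMTS16 DMRs were called higher and 2 lower, 12 and 2 of the window, and 4 to 5 and 1 of the family, and the median ran from 1.21 to 1.57.

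The replicate number as a block left 10 and 2 ADAMTS16 calls, 12 and 2 in the window, 5 and 1 in the family and the median of 1.42. Deviations of equally numbered pigs from their breed means correlated at 0.06, -0.01 and 0.06 over the DMRs, against -0.08 to 0.03 for unequal numbers. LBF replicates 1 and 3 correlated best with the RBF pig of their own number, and LBF replicate 2 with RBF replicate 3 (0.02). All these values were small, and the numbers were not taken as pairs. Low depth limits the values of DMR 1 in RBF, with 7 overlaps over 3 pigs. It also limits DMR 11 in LBF replicate 1, with 7 overlaps, and DMR 12 in RBF replicates 1 and 2, with 20 and 6.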
